A study of Homo sapiens with 6 samples.

Results

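Aminoacyl-tRNA synthetases are the enzymes that attach each amino acid to its transfer RNA. The 35 synthetase genes described here were chosen by name, not by any measured value, though earlier results of these data were known. They comprise 19 genes for cytosolic enzymes and 16 genes for mitochondrial enzymes, and all 35 were found among the 57820 genes of the deposited table. The RNA came from motor neurons made from H9, an established human embryonic stem cell line, with the WT genotype in every library. All 6 libraries shared the same culture: motor neuron progenitors were differentiated in neural medium with retinoic acid (RA) and the smoothened agonist SAG. In the 3 SMG libraries the cells were kept under simulated microgravity on a 2D clinostat, a device that turns the culture so that the direction of gravity is averaged out. In the 3 NG libraries the cells stayed at normal gravity. The labels state neither how long the cells were turned nor whether the libraries of a group came from separate cultures. The p-values therefore measure only library-to-library spread, which may be technical, and all cells derive from 1 line.

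Total counts were 20986483, 22267155 and 22685870 in the SMG libraries, against 21386253, 16329907 and 16600001 in the NG libraries. Counts were tested over 17803 genes with edgeR's quasi-likelihood test, and a gene passed at a Benjamini-Hochberg adjusted p under 0.05. Fold changes are SMG over NG on the log2 scale. Levels are CPM, the count of a gene as a share of its library's scaled total. Motor neuron markers were detected, and 5 of the 6 on the list passed higher in SMG, led by SLC18A3 at a log2 fold change of 0.66 and MNX1 at 0.24. With a trend on length and GC content removed, 3 of the 6 passed higher, SLC18A3 at 0.52, ISL1 at 0.30 and SLC5A7 at 0.26. MNX1 and LHX3, both at 0.09, then did not pass (edgeR adjusted p = 0.109 and 0.358). The summed level of the 6 motor neuron markers was 655 to 679 CPM in SMG libraries, against 552 to 577 CPM in NG libraries. Of the 5 general neuron markers, ELAVL4 at -0.17 and STMN2 at -0.12 passed lower, TUBB3 at 0.65 passed higher, and MAP2 and SNAP25, both at 0.07, did not pass. Their summed level was 3410 to 3452 CPM in SMG and 3506 to 3651 CPM in NG, and with the trend removed 0 were lower and 3 higher. Of the 6 progenitor and cycling markers, 3 passed lower in SMG, led by TOP2A at -0.38 and OLIG2 at -0.22. The summed level of these 6 was 4061 to 4175 CPM in SMG and 4200 to 4476 CPM in NG. Beside these counts, 17.3% of all genes tested passed higher and 18.5% lower. With the trend removed, the shares over all genes were 15.9% higher and 15.0% lower. The defining astrocyte genes GFAP, AQP4 and ALDH1L1 had at most 9 counts in any library, and so had the microglial genes PTPRC, AIF1 and CX3CR1, the pluripotency genes POU5F1 and NANOG and the muscle genes MYOD1 and MYOG. The mesenchymal genes COL1A1 and PDGFRA did not pass. Some of these markers thus differed between the same groups as the synthetase genes, in both directions, and their part in the results was not tested. In bulk RNA, fewer cells of a type and less RNA per cell cannot be told apart.

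Each enzyme recognises 1 amino acid and the transfer RNAs that read its codons, so a cell needs a set of synthetases for the cytosol and a set for the mitochondrion. Most mitochondrial enzymes have a gene of their own in the nucleus, and their names end in the digit 2. GARS1 (glycine) and KARS1 (lysine) each encode both forms, and EPRS1 joins the glutamate and proline enzymes in a single chain. Several cytosolic enzymes sit in the multisynthetase complex, held together by the scaffold proteins AIMP1, AIMP2 and EEF1E1. When a charged transfer RNA is scarce, the uncharged form activates the kinase GCN2. GCN2 phosphorylates the initiation factor eIF2α, translation of the transcription factor ATF4 rises, and many cytosolic synthetase genes are among its known targets. Dominant variants of GARS1, YARS1, AARS1, HARS1 and WARS1 are known causes of inherited motor and sensory neuropathies, which is why this family is often studied in motor neurons.

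ATF4 binds a composite element whose core reads TGATGNAA, with N for any base, on either strand. RefSeq promoter windows of 300 bases on build GRCh38.p14, from 250 bases before to 50 bases after the start of transcription, were matched by gene symbol for 30 of the 35 genes. LARS1, VARS1, YARS1, VARS2 and AARS2 had no entry. The core was found on either strand in 7 of 16 cytosolic windows and in 1 of 14 mitochondrial windows, against 4.46% of 27305 genes. The stricter form TGATGCAA was present for 6 of the 16 cytosolic genes and 0 of the 14 mitochondrial genes, against 1.08% of all genes. The 8 matches are shown here because they are the sequence feature that sets the cytosolic and mitochondrial promoters most apart among the motifs searched. Each line gives 30 bases on the strand of the gene, 5′ to 3′, with the matched core in capitals.
TARS1: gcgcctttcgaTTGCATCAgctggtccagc
GARS1: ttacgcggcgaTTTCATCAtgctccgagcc
IARS1: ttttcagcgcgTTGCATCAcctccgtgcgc
CARS1: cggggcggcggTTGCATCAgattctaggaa
MARS1: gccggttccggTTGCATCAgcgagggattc
AARS1: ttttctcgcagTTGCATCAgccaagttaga
NARS1: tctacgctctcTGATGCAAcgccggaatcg
YARS2: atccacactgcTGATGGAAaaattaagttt
The 30 bases lie at chr5:33440956-33440985 on the plus strand for TARS1, chr7:30594834-30594863 on the plus strand for GARS1 and chr9:92293692-92293721 on the minus strand for IARS1. They lie at chr11:3057407-3057436 on the minus strand for CARS1, chr12:57488053-57488082 on the plus strand for MARS1 and chr16:70289675-70289704 on the minus strand for AARS1. NARS1 is at chr18:57621804-57621833 and YARS2 at chr12:32756076-32756105, both on the minus strand. The core began 2 bases after the start of transcription in TARS1 and 14 bases after it in NARS1. It began 2 bases before the start in CARS1, 4 before it in MARS1, 13 before it in IARS1 and 33 before it in GARS1. In AARS1 and YARS2 it lay farther upstream, at 187 and 197 bases before the start. A match is a description of these letters and not a bound site.

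The nuclear respiratory factor 1 motif, searched on both strands as GCGC, any base and then TGCGC, was present for 3 cytosolic genes (FARSB, SARS1 and TARS1) and 3 mitochondrial genes (IARS2, MARS2 and PARS2), against 6.98% of all genes. The E-box CACGTG was present for IARS1 among cytosolic genes and for CARS2, EARS2 and MARS2 among mitochondrial genes, against 8.77% of all genes. HARS1 and HARS2, the cytosolic and mitochondrial histidine enzymes, are read in opposite directions from starts that lie 84 bases apart. The stretch between them is shown because the pair shares it and the HARS genes are compared further on. It lies at chr5:140691371-140691454, is written on the plus strand, has 59.5% GC and holds no capitals because no motif is marked.
HARS1 and HARS2: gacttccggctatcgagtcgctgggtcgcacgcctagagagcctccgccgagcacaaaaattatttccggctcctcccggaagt

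Most synthetase genes that passed were lower under simulated microgravity, by small amounts. Of the 34 genes tested, 17 passed lower in SMG, 4 passed higher and 13 did not pass. Over all genes tested, 35.8% passed, 18.5% lower and 17.3% higher. Among the cytosolic genes 11 of 19 were lower, 2 higher and 6 did not pass. For the mitochondrial genes 6 of 15 tested were lower, 2 higher and 7 did not pass. The median log2 fold change was -0.10 over cytosolic genes and -0.13 over mitochondrial genes, against -0.00018 over all genes tested. The cytosolic genes that passed lower fell by 6.26% to 16.9%, and the mitochondrial ones by 8.68% to 21.4%. The difference between the cytosolic and mitochondrial lists was not tested. Read against their background, the shares passing lower were above 18.5% in both lists, and the shares passing higher, 10.5% of cytosolic and 13.3% of mitochondrial genes, were below 17.3%.

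**Figure D1:**
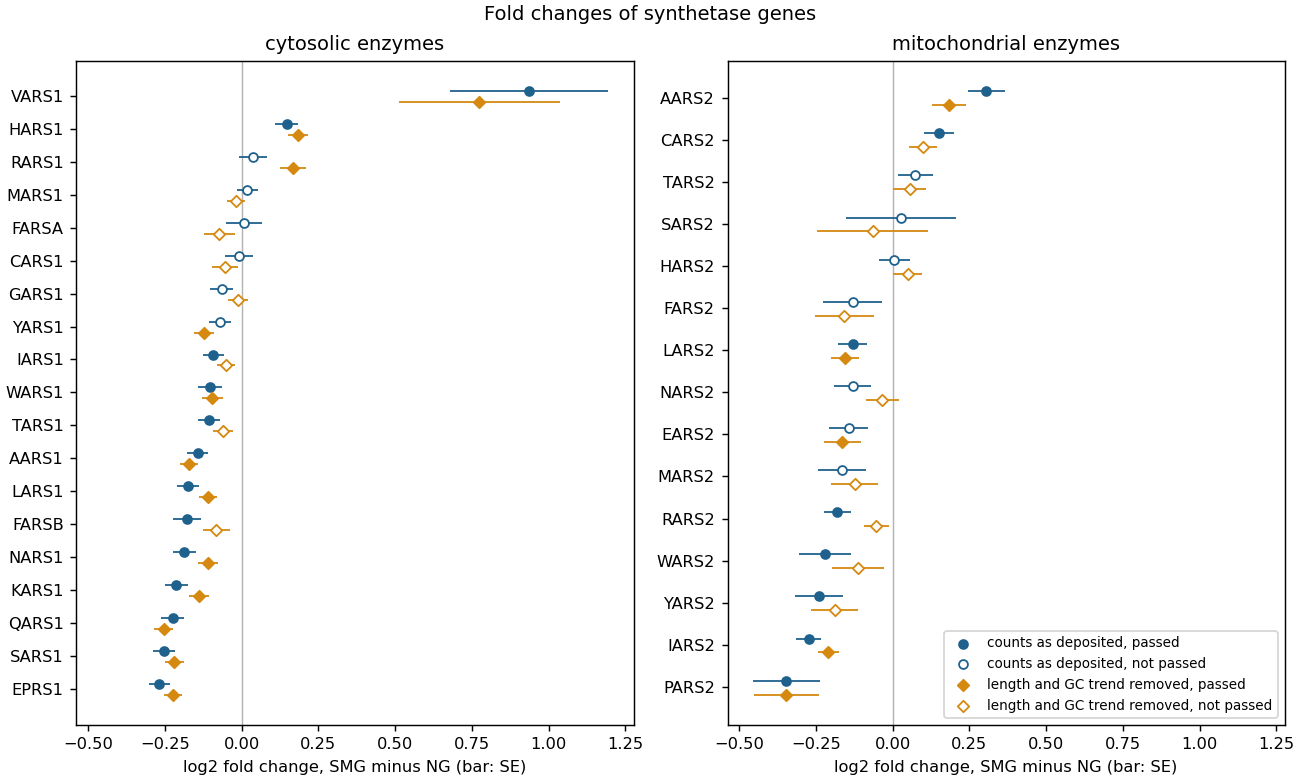
Log2 fold change of SMG over NG (x axis, bars are the SE) for the 34 synthetase genes tested, 1 row per gene, with cytosolic genes left and mitochondrial genes right. Blue circles are from the counts as deposited and orange diamonds from the fit with the trend on length and GC content removed, filled where the gene passed; most circles lie between -0.35 and 0.31, and VARS1 at 0.94 stands apart with the widest error.

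Summed over the 19 cytosolic genes, the level was 2435, 2481 and 2441 CPM in SMG libraries, against 2670, 2688 and 2690 CPM in NG libraries. For the mitochondrial genes tested the sum was 460, 452 and 453 CPM in SMG libraries, against 488, 479 and 491 CPM in NG libraries. Neither pair of groups overlapped, and every SMG library was below every NG library. Counting genes whose 3 SMG values all lay on 1 side of the 3 NG values gave 12 cytosolic and 8 mitochondrial genes lower, with 2 higher in each list. Over all genes, 46.3% did not overlap, 23.6% lower and 22.6% higher. Cytosolic transcripts were also more abundant per length. The median level was 34.7 CPM per kilobase in SMG and 40.4 in NG for cytosolic genes, against 7.26 in SMG and 7.38 in NG for mitochondrial genes. SARS1 (serine) had the highest level at 120 CPM per kilobase in SMG and 143 in NG. Among mitochondrial genes RARS2 (arginine) was highest at 31.2 CPM per kilobase in SMG and 35.4 in NG. SARS2 at 1.25 in SMG and 1.20 in NG and VARS1 at 0.340 in SMG and 0.178 in NG were the lowest of the genes tested.

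**Figure D2:**
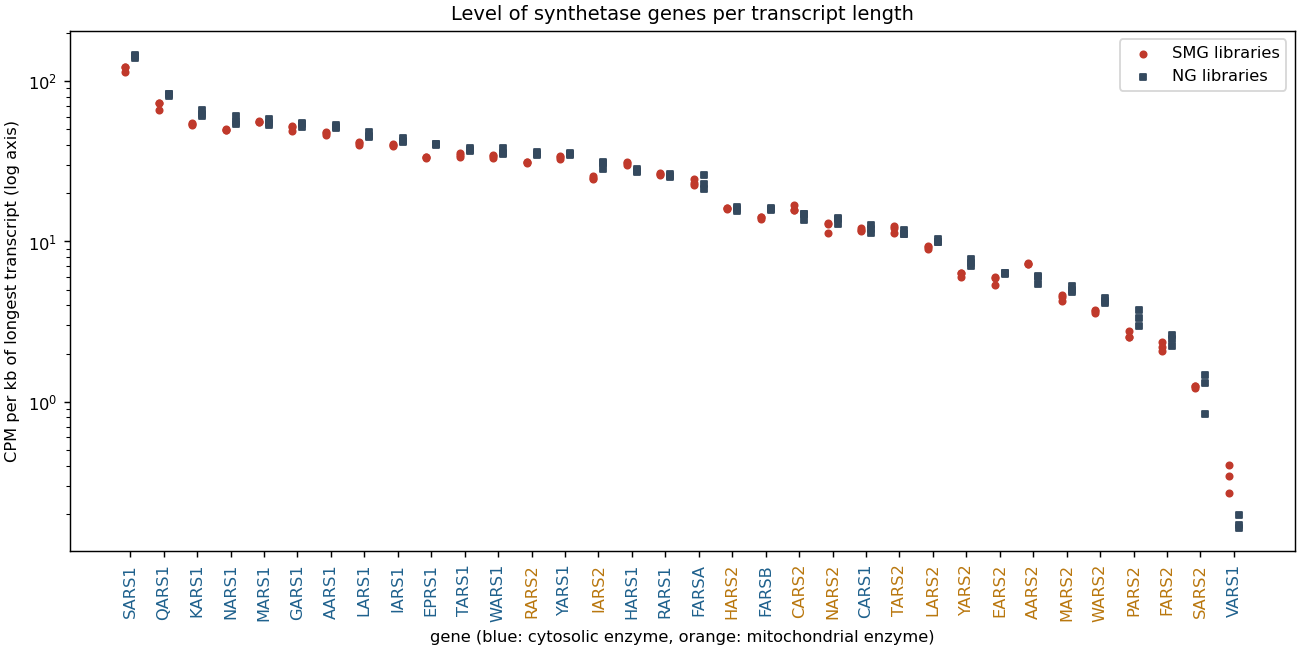
Level of each synthetase gene tested in CPM per kilobase of its longest transcript (y axis, log scale), 1 point per library, with SMG (red circles) left of NG (dark squares) and genes ordered by level. SARS1 is highest with a mean of 120 in SMG and 143 in NG, most mitochondrial genes (orange names) lie right of most cytosolic ones (blue names), and VARS1 is lowest.

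Of the 7 enzyme genes of the multisynthetase complex, 5 passed lower and 0 higher, against 18.5% lower and 17.3% higher of all genes tested. Their median log2 fold change was -0.18. With the trend on length and GC content removed, which is described further on, 4 were lower and 1 (RARS1) higher, with a median of -0.11. EPRS1, the joined glutamate and proline enzyme, had 169, 170 and 166 CPM in SMG libraries, against 202, 202 and 204 CPM in NG libraries. The groups were far apart relative to their spread, and the log2 fold change was -0.27 ± 0.03 (SE; adjusted p = 2.84e-07). QARS1, which charges glutamine, had 186, 205 and 207 CPM in SMG libraries, against 234, 236 and 230 CPM in NG libraries. SMG replicate 1 was lowest, no SMG value reached the NG values, and the log2 fold change was -0.22 ± 0.04 (adjusted p = 2.74e-05).

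KARS1, the lysine enzyme of both compartments, had 132, 133 and 129 CPM in SMG libraries, against 146, 152 and 160 CPM in NG libraries. The SMG libraries were close together and all below NG, with a log2 fold change of -0.21 ± 0.04 (adjusted p = 4.88e-05). LARS1, the leucine enzyme and a known leucine sensor upstream of mTORC1, had 198, 197 and 190 CPM in SMG libraries, against 218, 213 and 229 CPM in NG libraries. Its groups did not overlap, and the log2 fold change was -0.18 ± 0.03 (adjusted p = 0.000240). IARS1 (isoleucine) had 185, 185 and 187 CPM in SMG and 196, 193 and 206 CPM in NG. That difference was smaller, at -0.09 ± 0.03 (adjusted p = 0.0335). RARS1 (arginine) had 57.4, 56.7 and 55.5 CPM in SMG and 54.5, 56.3 and 54.7 CPM in NG. MARS1 (methionine) at 0.02 ± 0.03 and RARS1 at 0.04 ± 0.05 did not pass (adjusted p = 0.721 and 0.584), and their groups overlapped.

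Among the scaffolds of that complex, AIMP1 had 31.3, 31.7 and 32.0 CPM in SMG libraries, against 43.2, 40.3 and 46.2 CPM in NG libraries. Every SMG library was lower, by a log2 fold change of -0.45 ± 0.06 (adjusted p = 3.23e-07), which is larger than that of any enzyme in the complex. AIMP2, with 13.9, 13.7 and 12.8 CPM in SMG and 11.8, 14.2 and 12.2 CPM in NG, did not pass at 0.09 ± 0.09 (adjusted p = 0.466). EEF1E1, the third scaffold, had 10.1, 11.4 and 11.2 CPM in SMG and 11.8, 11.6 and 13.2 CPM in NG. Its log2 fold change of -0.16 ± 0.09 also missed the threshold (adjusted p = 0.162).

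Of the 12 cytosolic genes outside the complex, 6 passed lower and 2 passed higher, against 18.5% and 17.3% of all genes tested. SARS1, the serine enzyme, had 215, 231 and 229 CPM in SMG libraries, against 270, 274 and 261 CPM in NG libraries. No SMG value came near the NG range, and the log2 fold change was -0.25 ± 0.03 (adjusted p = 1.83e-06). NARS1, the asparagine enzyme, had 154, 157 and 154 CPM in SMG libraries, against 169, 172 and 189 CPM in NG libraries. NG replicate 3 was the highest, the groups did not overlap, and the log2 fold change was -0.19 ± 0.04 (adjusted p = 0.000343). FARSB, the beta subunit of the phenylalanine enzyme, had 47.7, 48.2 and 46.4 CPM in SMG and 53.3, 53.6 and 54.2 CPM in NG. FARSB was lower, with a log2 fold change of -0.18 ± 0.05 (adjusted p = 0.00353). Its partner subunit FARSA overlapped between the groups at 0.01 ± 0.06 (adjusted p = 0.933). With the trend on length and GC content removed, the subunits were alike, at -0.08 for FARSB and -0.07 for FARSA. Neither then passed in edgeR's test (adjusted p = 0.153 and 0.304).

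AARS1, the alanine enzyme, had 162, 165 and 167 CPM in SMG libraries, against 185, 181 and 178 CPM in NG libraries, a log2 fold change of -0.14 ± 0.03 (adjusted p = 0.00151). The groups were separate. TARS1 (threonine) at -0.11 ± 0.04 and WARS1 (tryptophan) at -0.10 ± 0.04 passed by less (adjusted p = 0.0185 and 0.0396). WARS1 had 107, 102 and 106 CPM in SMG and 109, 111 and 118 CPM in NG. CARS1 (cysteine) overlapped, with 69.9, 67.9 and 67.0 CPM in SMG and 72.5, 68.4 and 64.4 CPM in NG, at -0.01 ± 0.05 (adjusted p = 0.919). GARS1 (glycine) had 137, 138 and 129 CPM in SMG and 145, 142 and 136 CPM in NG. YARS1 (tyrosine) had 108, 111 and 105 CPM in SMG and 112, 115 and 114 CPM in NG. Neither passed, at -0.06 ± 0.04 for GARS1 and -0.07 ± 0.04 for YARS1 (adjusted p = 0.191 and 0.141). Of the neuropathy genes named above, AARS1 and WARS1 were thus lower in SMG, HARS1 was higher, and GARS1 and YARS1 did not pass.

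HARS1, the histidine enzyme, had 105, 107 and 109 CPM in SMG libraries, against 94.9, 99.0 and 96.5 CPM in NG libraries. All SMG values were above all NG values, with a log2 fold change of 0.15 ± 0.04 (adjusted p = 0.00276). VARS1, the cytosolic valine enzyme, had 37, 26 and 34 counts in SMG libraries, against 15, 12 and 14 counts in NG libraries. That is 1.75, 1.17 and 1.49 CPM in SMG and 0.707, 0.739 and 0.853 CPM in NG, and the groups did not overlap. Its log2 fold change of 0.94 ± 0.26 (adjusted p = 0.00517) rests on these few counts. VARS2, the mitochondrial valine enzyme, had 13, 10 and 6 counts in SMG and 7, 6 and 5 counts in NG and was too low to be tested. Both valine genes had few counts for a housekeeping enzyme, and so had the genes around them. Of the 20 protein-coding neighbours of VARS1, 9 had no count in any library and 18 had at most 10 in every library. Around VARS2, 8 of 20 neighbours had no count and 14 had at most 10 in every library. What part the counting of reads in this region has in the VARS1 and VARS2 values was not tested.

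**Figure D3:**
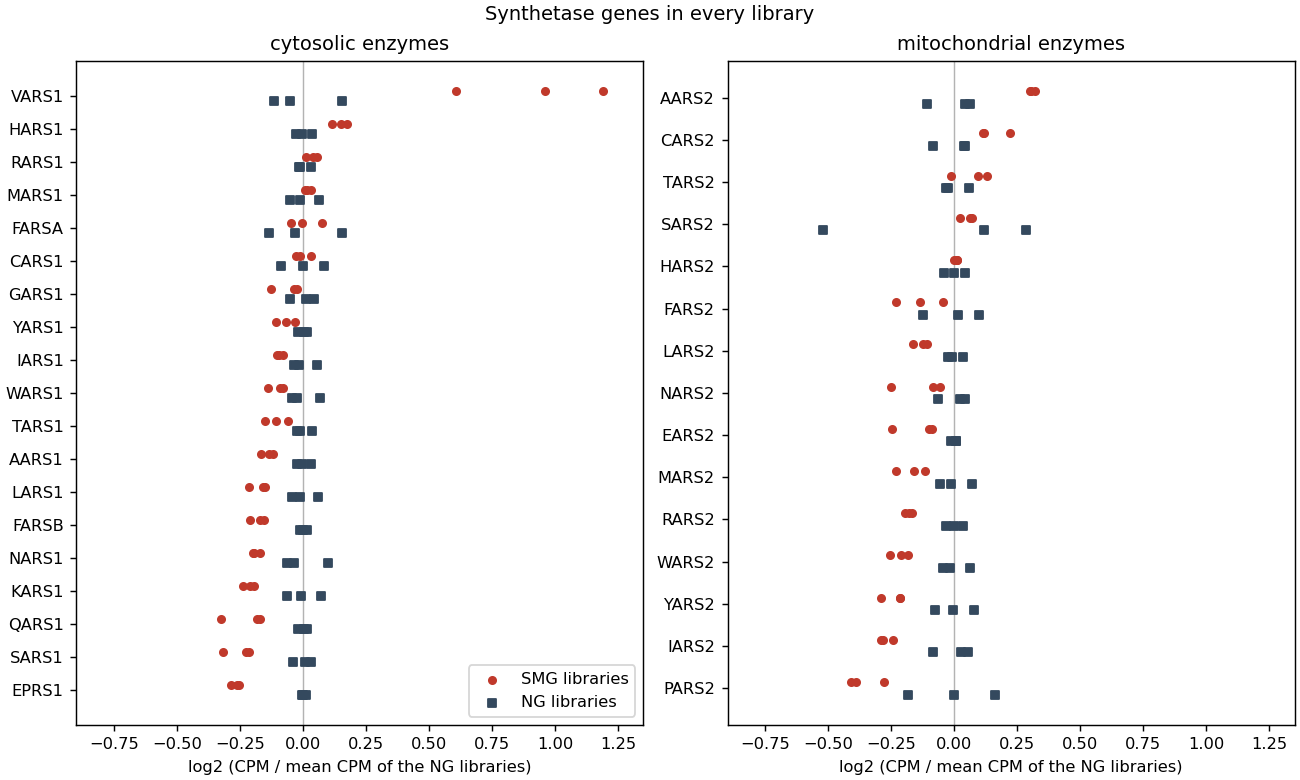
Level of each synthetase gene tested in every library, as log2 of its CPM over the mean CPM of the NG libraries (x axis), 1 row per gene, with SMG libraries as red circles above NG libraries as dark squares. Most rows have their red circles left of 0, and AARS2, CARS2, HARS1 and VARS1 have all of them to the right of every NG square.

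IARS2, the mitochondrial isoleucine enzyme, had the smallest adjusted p among the mitochondrial genes. It had 87.8, 91.0 and 88.4 CPM in SMG libraries, against 110, 101 and 112 CPM in NG libraries. The groups did not overlap and the log2 fold change was -0.27 ± 0.04 (adjusted p = 4.69e-06). PARS2 (proline) had the largest fall of the family, with 5.99, 5.93 and 6.48 CPM in SMG and 6.93, 8.81 and 7.86 CPM in NG. Its log2 fold change was -0.35 ± 0.11 (adjusted p = 0.0133), and its wider error went with its low level.

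RARS2, the arginine enzyme known from pontocerebellar hypoplasia, had 57.2, 56.3 and 56.8 CPM in SMG libraries, against 62.9, 64.3 and 65.9 CPM in NG libraries. The groups were separate, and the log2 fold change was -0.18 ± 0.04 (adjusted p = 0.00198). YARS2 (tyrosine) had 13.5, 12.8 and 13.5 CPM in SMG and 15.6, 14.8 and 16.5 CPM in NG, a log2 fold change of -0.24 ± 0.08 (adjusted p = 0.0174). WARS2 (tryptophan) had 10.6, 10.4 and 10.1 CPM in SMG and 12.5, 11.6 and 11.9 CPM in NG, a log2 fold change of -0.22 ± 0.09 (adjusted p = 0.0439). LARS2 (leucine) had 42.6, 43.8 and 44.2 CPM in SMG and 47.4, 48.8 and 46.9 CPM in NG, a log2 fold change of -0.13 ± 0.05 (adjusted p = 0.0354). In these 3 genes, too, no SMG value reached the lowest NG value.

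AARS2, the mitochondrial alanine enzyme, ran the other way, with 27.8, 28.2 and 27.9 CPM in SMG libraries, against 23.6, 23.3 and 21.0 CPM in NG libraries. It was 1.24-fold higher in SMG, a log2 fold change of 0.31 ± 0.06 (adjusted p = 0.000238). CARS2, the mitochondrial cysteine enzyme, had 59.1, 55.0 and 54.9 CPM in SMG and 52.0, 52.2 and 47.8 CPM in NG. It was 1.11-fold higher, at 0.15 ± 0.05 (adjusted p = 0.0188). Neither gene's groups overlapped.

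The other 7 mitochondrial genes did not pass. EARS2 (glutamate) had 23.5, 21.2 and 23.6 CPM in SMG and 25.3, 25.3 and 24.9 CPM in NG, and missed the threshold at -0.14 ± 0.06 (adjusted p = 0.0719). NARS2 (asparagine) had 32.8, 32.2 and 28.6 CPM in SMG and 34.6, 32.6 and 35.05 CPM in NG, and MARS2 (methionine) had 12.9, 13.5 and 13.9 CPM in SMG and 14.5, 15.0 and 15.8 CPM in NG. In EARS2 and MARS2 all SMG values were below all NG values. FARS2 (phenylalanine), HARS2 (histidine), SARS2 (serine) and TARS2 (threonine) overlapped between the groups, with log2 fold changes of -0.13, 0.00, 0.03 and 0.07. FARS2 had 9.16, 8.04 and 8.58 CPM in SMG and 8.67, 9.55 and 10.1 CPM in NG. SARS2 had 2.60, 2.51 and 2.58 CPM in SMG and 3.02, 1.72 and 2.68 CPM in NG, with the NG values spread around the SMG ones. HARS2 was the flattest of the family, with 40.5, 40.5 and 40.1 CPM in SMG libraries, against 41.3, 39.0 and 40.2 CPM in NG libraries.

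The rule for the genes asks for cytosolic enzymes beside mitochondrial ones, so the 16 pairs that charge the same amino acid were set against each other within each library. The ratio of cytosolic to mitochondrial level per kilobase does not depend on how libraries are scaled. The trend on length and GC content was not removed from these ratios. For alanine, AARS1 over AARS2 was 6.44, 6.48 and 6.63 in SMG libraries, against 8.72, 8.62 and 9.43 in NG libraries. The SMG ratios were all lower, by 0.45 on the log2 scale (difference -0.45), since AARS1 was lower and AARS2 higher. CARS1 over CARS2 was 0.726, 0.758 and 0.749 in SMG and 0.855, 0.805 and 0.827 in NG, so the mitochondrial cysteine gene was the more abundant per length in every library, and the ratio was lower in SMG.

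In 5 pairs the ratio was higher in every SMG library than in every NG library. For isoleucine, IARS1 over IARS2 was 1.61, 1.55 and 1.62 in SMG libraries, against 1.37, 1.45 and 1.41 in NG libraries. For arginine, RARS1 over RARS2 was 0.849, 0.853 and 0.828 in SMG libraries, against 0.733, 0.742 and 0.704 in NG libraries. Isoleucine had both genes lower and the mitochondrial one by more, and arginine had RARS1 overlapping while RARS2 was lower. The ratios for tyrosine, methionine and histidine were higher by 0.17, 0.19 and 0.14 on the log2 scale. For histidine the ratio HARS1 over HARS2 was 1.86, 1.91 and 1.96 in SMG, against 1.65, 1.82 and 1.73 in NG, although both genes start from the shared stretch shown above. In the remaining 9 pairs the groups overlapped. With 3 libraries a group, the exact two-sided permutation test cannot give a p below 0.10, and after adjustment over the 16 pairs the 7 separate pairs had p = 0.229, so no pair passed.

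**Figure D4:**
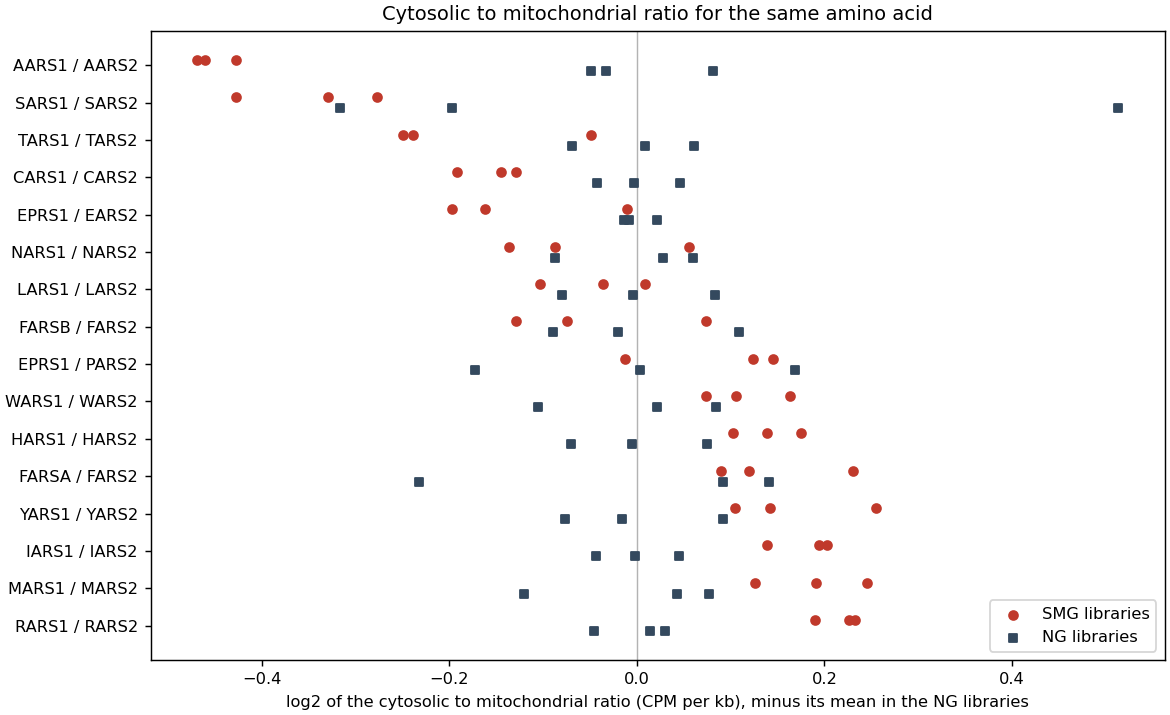
Log2 ratio of cytosolic to mitochondrial level per kilobase minus its mean in the NG libraries (x axis), for 16 pairs of synthetase genes that charge the same amino acid, 1 point per library, with SMG (red circles) above NG (dark squares). The alanine and cysteine pairs are lower in SMG and the isoleucine, arginine, tyrosine, methionine and histidine pairs are higher, with no overlap in those 7.

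For the splits that follow, the shares over all genes tested were 18.5% lower and 17.3% higher. With the trend on length and GC removed they were 15.0% lower and 15.9% higher. Split by known control through ATF4, the 12 cytosolic genes known as ATF4 targets had 8 lower and 0 higher, with a median of -0.10. The 8 were AARS1, EPRS1, IARS1, LARS1, NARS1, SARS1, TARS1 and WARS1. The 7 cytosolic genes outside that list of targets had 3 lower (FARSB, KARS1 and QARS1) and 2 higher (HARS1 and VARS1), with a median of 0.01. With the trend on length and GC removed, the ATF4 targets had 7 lower and 0 higher and the others 2 lower and 3 higher, and the medians were close, at -0.10 for the targets and -0.07 for the others. Split instead by the TGATGNAA core, the 7 cytosolic genes with a match had 4 lower and 0 higher, and the 9 without one had 6 lower and 1 higher. Their medians, with the trend not removed, were -0.09 with a match and -0.18 without. With the trend removed, AARS1 and NARS1 among the genes with a match still passed lower, and IARS1 and TARS1 did not. Among those without one, EPRS1, KARS1, QARS1, SARS1 and WARS1 still passed lower. FARSB then did not, HARS1 still passed higher and RARS1 newly passed higher. The genes with a match spanned MARS1 at 0.02 to NARS1 at -0.19. Synthetases fall into 2 structural classes that differ in the fold of their catalytic domain. Class I genes had 9 lower and 2 higher of 17 tested, with a median of -0.13, and class II genes had 7 lower and 2 higher of 16, with a median of -0.12. EPRS1 holds a domain of each class and was left out of both counts.

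ATF4 itself had 198, 199 and 186 CPM in SMG libraries, against 224, 227 and 241 CPM in NG libraries. Its transcript was lower in SMG by a log2 fold change of -0.25 ± 0.04 (adjusted p = 5.08e-06), and the groups did not overlap. Because ATF4 is controlled largely at translation, its transcript level does not give its protein level. ATF4 was listed with GCN2 and its 2 regulators, and 3 of these 4 genes passed lower, or 2 with the trend on length and GC removed. Over all genes tested the share lower was 18.5%, or 15.0% with the trend removed. EIF2AK4, which encodes GCN2, had 95.4, 95.3 and 92.4 CPM in SMG and 107, 98.6 and 103 CPM in NG, at -0.12 ± 0.04 (adjusted p = 0.014). IMPACT, an inhibitor of GCN2 activation, was lower at -0.20 ± 0.06 (adjusted p = 0.00578), and GCN1, the activator of GCN2, did not pass at 0.12 ± 0.05 (adjusted p = 0.0521).

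Genes of amino acid synthesis had 7 lower and 1 higher of 14, against 18.5% lower and 17.3% higher of all genes tested. PHGDH, the first enzyme of serine synthesis, was lower at -0.28 ± 0.05 and CTH, which makes cysteine from cystathionine, at -0.45 ± 0.09. CBS, which makes the cystathionine that CTH uses, was the higher one at 0.24 ± 0.05. Asparagine synthetase (ASNS), PSAT1, SHMT2, ALDH18A1 and GLUL also passed lower. Other known ATF4 targets had 5 lower and 0 higher of 12 tested. DDIT4, a stress-induced inhibitor of mTORC1, had 41.3, 41.9 and 44.2 CPM in SMG libraries, against 87.2, 83.8 and 73.8 CPM in NG libraries. Its log2 fold change of -0.94 ± 0.05 (adjusted p = 6.29e-13) was the largest among the pathway genes. CHAC1, a glutathione-degrading enzyme, was lower at -0.30 ± 0.09 (adjusted p = 0.0117).

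Other lists cover steps before and after charging. Of 14 genes for processing, modification and export of transfer RNA, 5 passed lower and 2 higher, against 18.5% and 17.3% of all genes. TSEN15, a subunit of the splicing endonuclease, was lower at -0.31 ± 0.05 and SSB, which binds new polymerase III transcripts, at -0.22 ± 0.04. TSEN54, another subunit of the same endonuclease, was higher at 0.25 ± 0.07, and so was the cytosine methyltransferase NSUN2 at 0.21 ± 0.04. XPOT, the nuclear exporter of transfer RNA, RTCB, the ligase, and TRMT10C also passed lower. Mitochondria make their glutaminyl-tRNA by an amidotransferase and formylate the initiator methionyl-tRNA. The 4 genes of those steps, GATB, GATC, QRSL1 and MTFMT, had log2 fold changes of 0.03, 0.04, -0.01 and 0.07, and 0 of them passed (adjusted p from 0.598 to 0.885).

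Relatives and editing factors of the synthetases had 2 lower and 1 higher of 6. SEPSECS, which completes selenocysteine on its transfer RNA, was lower at -0.27 ± 0.07 (adjusted p = 0.00266), and DTD1, which removes D-amino acids, at -0.15 ± 0.04. AARSD1, an alanine-editing relative, was higher at 0.48 ± 0.16 (adjusted p = 0.0192). The cytosolic elongation factors had 2 lower and 1 higher of 5 tested. EEF1A1 was lower at -0.30 ± 0.03 and EEF1B2 at -0.43 ± 0.07, while EEF1A2, the form of mature neurons and muscle, was higher at 0.29 ± 0.04. EEF1B2 had 91.9, 113 and 110 CPM in SMG libraries, lowest in SMG replicate 1, against 140, 143 and 142 CPM in NG libraries. EEF1G, also on the list, had 0 counts in every library and could not be tested. With the trend on length and GC removed, EEF1A2 was at 0.12, EEF1A1 at -0.29 and EEF1B2 at -0.39, and each still passed. Of 9 mitochondrial translation factors, MRRF at -0.19 ± 0.07 and MTIF2 at -0.16 ± 0.06 were lower, and 0 were higher. Over all these pathway lists together, 27 of 71 genes tested passed lower and 5 higher, against 18.5% lower and 17.3% higher of all genes. Over the alternatives tried, these counts ran from 20 to 27 lower and from 4 to 7 higher. Against that background, the mitochondrial translation factors, with 22.2% lower, were near it. With the trend on length and GC removed, IMPACT (adjusted p = 0.17), TRMT10C (0.842), MTIF2 (0.67), TSEN54 (0.0929), ATF3 (0.0838) and ALDH18A1 (0.0552) no longer passed in edgeR's test. In that fit DTD2, TRNT1 and TSFM newly passed higher, and GPT2 and ATF5 newly passed lower (edgeR adjusted p from 0.0116 to 0.0433).

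The fold changes of all genes ran with base composition. Of genes with under 50% GC in the transcript, 26.5% passed lower in SMG, against 9.17% of genes at or above 50%. Cytosolic synthetases below 50% GC had 7 of 10 lower, and those at or above it had 4 of 9 lower. Mitochondrial ones had 4 of 7 lower and 2 of 8 lower on those sides of 50%. Spearman's rho between GC content and log2 fold change was 0.32 over 19 cytosolic genes, 0.65 over 15 mitochondrial genes and 0.34 over 17193 genes. Without VARS1, which has few counts, it was 0.20 over 18 cytosolic genes. These points share the same 6 libraries. With a smooth trend on length and GC removed in each library, 9 cytosolic genes passed lower and 3 higher, and 4 mitochondrial genes passed lower and 1 higher, against 15.0% lower and 15.9% higher of all genes. Of the lower calls, 8 cytosolic and 3 mitochondrial genes were shared with those before the trend was removed. FARSB, IARS1, TARS1, CARS2, RARS2, WARS2 and YARS2 no longer passed. RARS2 was at -0.05 (adjusted p = 0.339). RARS1 at 0.17 passed higher, and YARS1 at -0.12 and EARS2 at -0.16 passed lower. The medians were then -0.08 for cytosolic and -0.11 for mitochondrial genes. AIMP1 at -0.30 and ATF4 at -0.28 still passed.

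**Figure D5:**
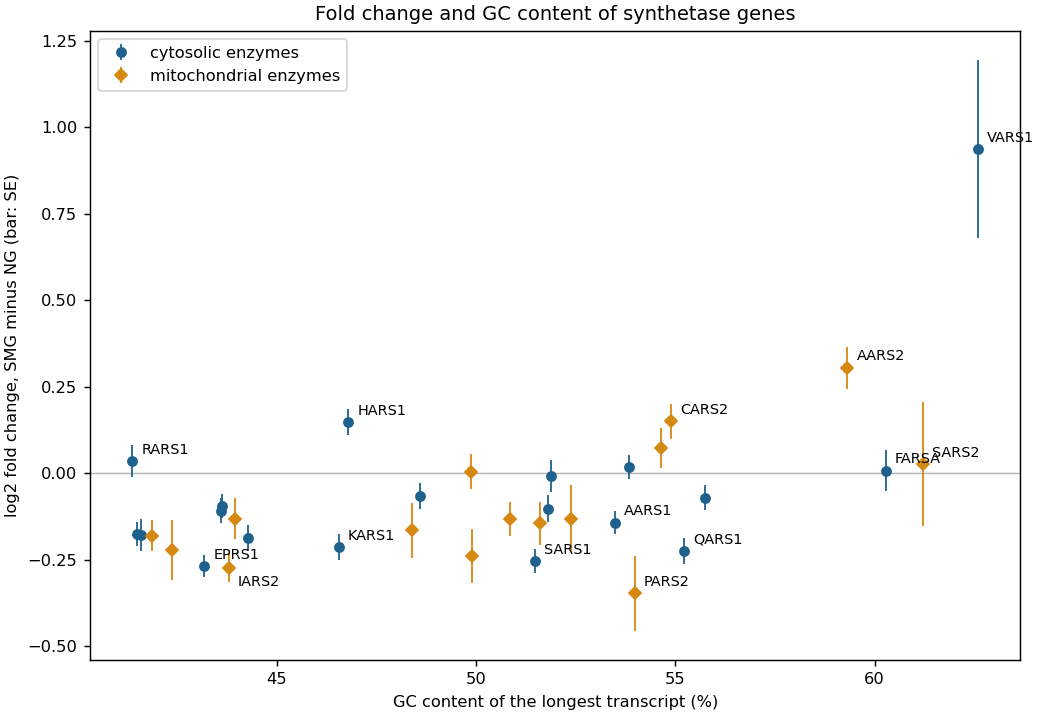
Log2 fold change of SMG over NG (y axis, bars are the SE) against the GC content of the longest transcript in percent (x axis) for the 34 synthetase genes tested, cytosolic as blue circles and mitochondrial as orange diamonds. Spearman's rho was 0.32 for cytosolic genes, 0.20 without VARS1 at the top of the plot, and 0.65 for mitochondrial genes.

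With any 1 library left out, 13 of the 21 calls held each time. IARS1 passed only without NG replicate 2 (adjusted p = 0.0668 to 0.106 without any other library). LARS2 passed only without NG replicate 3 (0.0645 to 0.121 without any other). WARS1 did not pass without any of the SMG libraries or NG replicate 3 (0.0608 to 0.172), nor WARS2 without any of the SMG libraries or NG replicate 1 (0.065 to 0.17). TARS1 did not pass without SMG replicate 1, SMG replicate 3 or NG replicate 1 (0.0568 to 0.129). CARS2 was lost without SMG replicate 1 (0.116) or NG replicate 3 (0.0616), PARS2 without SMG replicate 2 (0.057) or NG replicate 2 (0.0928), and YARS2 without SMG replicate 2 (0.0698) or NG replicate 3 (0.0546). GARS1 passed without NG replicate 3 (log2 fold change -0.09, adjusted p = 0.0457). The count of mitochondrial genes lower was 2 without SMG replicate 2. All of these are edgeR quasi-likelihood tests.

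Some of the genes share exon sequence with others, and the sources used here do not say whether the counting used strand. SARS2 shares 57.0% of its exon bases with other genes, VARS2 22.0%, HARS2 15.8%, MARS1 13.3%, WARS1 10.6% and HARS1 8.38%, and the effect on their values was not tested. Part of the HARS2 overlap, 11.7% of its exon bases, is with HARS1 on the opposite strand.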

How the data were processed

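For each Ensembl gene and library the authors deposited a raw count, a whole number that is not normalized, made from their RNA-seq reads. The submitters' processing notes name HISAT2, SAMtools, featureCounts and DESeq2 and the genome build hg19. Which versions and annotation were used, whether strand was used and how reads with several alignments were counted: not given in the sources used here.

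Each of 6 columns matched the title of 1 sample. Genes were filtered with edgeR 4.0.16 (filterByExpr), normalized by TMM and compared (SMG over NG) by glmQLFit (robust) and glmQLFTest in R 4.3.3, on the deposited counts of 17803 genes. Of 57820 genes, 51996 had a symbol. CPM values use TMM-scaled library sizes. At this depth the biological coefficient of variation was 0.0346. Length, GC content and exon overlap came from GENCODE 29, whose build is not that of the counts, and 96.6% of tested genes had a length and GC value. The trend on length and GC was a spline with 5 degrees of freedom per library. The fit was tested on simulated data. Promoters were RefSeq windows on GRCh38.p14, matched by symbol.

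The genes and all lists were chosen with earlier results of these data known. Every synthetase gene was accounted for, and per-library values were given for the 8 passing genes with the largest fold change in each compartment and their partners for the same amino acid. The other synthetase genes were given more briefly, and which of them got values was chosen after their values were seen. From other lists of up to 5 genes every gene was to be named, and from longer ones the 2 largest passing changes in each direction. The oligodendrocyte list is not reported here, and a few further genes were named after their values were seen. Alternatives were other scalings, other filters, DESeq2 1.42.0, limma-voom (limma 3.58.1), fitting without robust estimation, a replicate block, removal of the trend, and leaving out each library.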

Additional observations from a re-analysis of the deposited data

How the results depend on the processing

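Over 16 alternatives, 11 of the 21 synthetase calls held throughout (AARS1, EPRS1, HARS1, KARS1, LARS1, NARS1, QARS1, SARS1, VARS1, AARS2 and IARS2), and no passing gene changed sign. Cytosolic genes lower numbered 8 to 11 and higher 2 to 3. Mitochondrial genes lower were 2 with DESeq2, and 2 to 5 with 1 library left out. Mitochondrial genes higher were 1 with DESeq2, 1 with the length and GC trend removed, and 1 to 2 with 1 library left out. The mitochondrial median log2 fold change was -0.11 both with library size scaling and with the trend removed, and -0.16 to -0.13 with 1 library left out. Apart from the trend removal, whose construction takes out changes that run with GC and length, the cause was not tested. No pairing by replicate number was visible: same-numbered deviations correlated at -0.0041, 0.0178 and -0.0281, and differently numbered ones at -0.0432 to 0.0451. The labels do not say what a number shares, and 3 libraries a group cannot exclude pairing. With the replicate block, 11 cytosolic genes were lower and 2 higher, and 5 mitochondrial genes were lower and 2 higher, with WARS2 lost (edgeR adjusted p = 0.0573). With 3 libraries a group and log2 standard errors of 0.03 to 0.06 for most genes above 20 CPM, changes under about 0.10 were often not detectable.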
